A study of Mus musculus with 6 samples.

Results

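Collagens are the triple-helical proteins of the extracellular matrix, and the genes that encode their chains were described in cultured mouse neural stem cells. Collagen genes were taken as every gene whose symbol is Col, a type number, the letter a and a chain number, which gave 44 of the 53379 rows of the expression table. Of these, 16 had a mean normalized count of at least 10 over the 6 libraries and were tested, and 28 lay below that level. The normalized count is the number of reads of a gene divided by a size factor of its library, so it can be compared between libraries.

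The cells were neural stem cells (NSCs) from the telencephalic cortex of E14.5 mouse embryos, grown as neurospheres, and every library carried the *Tbl1xr1* flox/flox genotype. The 3 control libraries (replicates 1, 1_1 and 2) came from cells that received a GFP lentivirus without Cre. The other 3 (replicates 2, 2_2 and 3) came from cells infected with Cre-GFP, the recombinase meant to remove the floxed exon, and in both arms GFP-positive cells were sorted. *Tbl1xr1* encodes a subunit of the NCOR/SMRT co-repressor complexes. The comparison asks which transcripts differ once *Tbl1xr1* is deleted, in a culture that starts without the deletion. The floxed mouse line was kept in part by backcrosses to C57BL/6. The time between infection and RNA extraction was not given in the sources used here.

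*Tbl1xr1* itself had normalized counts of 2521.8, 2189.8 and 2720.6 in the control libraries and 3774.4, 3463.4 and 2905.5 in the libraries labelled Cre. The transcript was therefore not lower in the Cre arm (log2 fold change 0.45, SE 0.14, limma adjusted p = 0.06). The adjusted p was 0.0662 with edgeR and 0.0398 with DESeq2. The groups are named by their labels throughout. The study reports that sorted cells made this way had the correct genotype and lacked *Tbl1xr1* mRNA and protein. A per-gene count cannot show the loss of a single exon. Depth ran from 7510615 to 14828100 reads in genes per library. Nothing in the labels says whether replicates 1 and 1_1, or 2 and 2_2, came from separate cultures, so the p-values measure only the spread between these libraries, which may be technical.

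Collagen chains assemble in threes in the endoplasmic reticulum, where prolines and lysines are hydroxylated and chaperones guide folding, and the secreted trimers build different structures by family. Fibrillar collagens (types I, II, III, V, XI, XXIV and XXVII) form banded fibres after their end propeptides are cut off. Type IV chains keep their ends and link into the sheet of basement membranes, and the FACIT collagens (fibril-associated collagens with interrupted triple helices) decorate fibrils. In the developing cortex, basement membranes underlie the pial surface and the blood vessels, and radial glial stem cells hold on to the pial membrane by their end feet.

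Sequence around the starts of the collagen genes is shown for *Col11a1*, the collagen gene with the largest change, for *Col18a1*, a called gene with a distal and a proximal start, and for the type IV pair that shares a start. *Col4a1* and *Col4a2* lie head to head on chromosome 8 (RefSeq, build GRCm38.p6). Printed here on the plus strand are the 22 bases from an annotated start of *Col4a2* to an annotated start of *Col4a1*. The outermost RefSeq end of *Col4a1*, at 11312889, lies beyond them, so the genes overlap by more than these bases. *Col11a1* is shown upstream of its outermost annotated start on the plus strand of chromosome 3, and *Col18a1* upstream of its distal start on the minus strand of chromosome 10. Capitals mark matches, on either strand, to a CCAAT box (CCAAT), a GC box (GGGCGG) or a TATA box (TATAAA), which were searched as letters alone.
Col4a1 and Col4a2, chr8:11312805-11312826: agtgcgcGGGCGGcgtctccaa
Col11a1, chr3:114030290-114030478: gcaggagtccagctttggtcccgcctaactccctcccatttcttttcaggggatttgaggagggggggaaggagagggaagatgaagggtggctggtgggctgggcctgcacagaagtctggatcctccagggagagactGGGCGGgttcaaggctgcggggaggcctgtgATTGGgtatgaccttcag
Col18a1, chr10:77166531-77166780: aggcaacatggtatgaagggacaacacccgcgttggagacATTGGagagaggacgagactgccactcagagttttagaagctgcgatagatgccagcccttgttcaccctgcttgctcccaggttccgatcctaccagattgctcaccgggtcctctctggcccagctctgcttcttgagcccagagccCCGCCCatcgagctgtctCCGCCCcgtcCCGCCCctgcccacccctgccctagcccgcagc

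The 22 bases printed for the type IV pair hold a GC box and neither of the other motifs. Over windows of 250 bases before to 50 bases after an annotated start, the GC box was present in 23 of the 38 collagen windows (60.5%) and in 35.7% of all 32851 windows. The CCAAT box was present in 13 collagen windows (34.2%) against 37.4% of all windows, and the TATA box in 5 (13.2%) against 13.6%. Windows were found for 35 collagen genes, 12 of them among the tested genes. A match describes these letters only.

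Reads on collagen genes were a small and similar part of every library. The share ran from 0.0176% of reads in control replicate 1_1 (exact 95% interval 0.0167 to 0.0186%) to 0.0202% in Cre replicate 3 (0.0194 to 0.0210%), intervals that cover counting error only. Summed over the 44 genes, the normalized count was 1840 to 1987 in control and 1923 to 2147 in the libraries labelled Cre, so the groups overlapped in the total. The composition differed. Of the 16 tested genes, 7 passed limma's test at an adjusted p under 0.05, 2 with more and 5 with less RNA in the Cre arm, where 9.96% of all 14840 tested genes passed (4.74% higher and 5.22% lower). edgeR and DESeq2 on the recovered reads also called 7 each, beside 9.99% and 11.8% of all genes. The 2 higher and 5 lower calls became 1 and 2 without control replicate 1, 1_1 or 2, or without Cre replicate 2_2.

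The 3 control and the 3 Cre values did not overlap in 12 of the 16 genes, against 30.3% of all tested genes. Of these 12, 5 were higher in the libraries labelled Cre, beside a background of 14.7%, and 7 were lower, beside 15.5%. One of the 5, *Col4a4*, reached the minimum level only through the Cre arm and so had to differ. The median log2 fold change over the 16 genes was -0.09, with 8 above and 8 below 0, and that over all tested genes was -0.001. With 3 libraries against 3 an exact permutation test of a single gene cannot go below p = 0.1, so single genes rest on the fit across all genes.

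**Figure D1:**
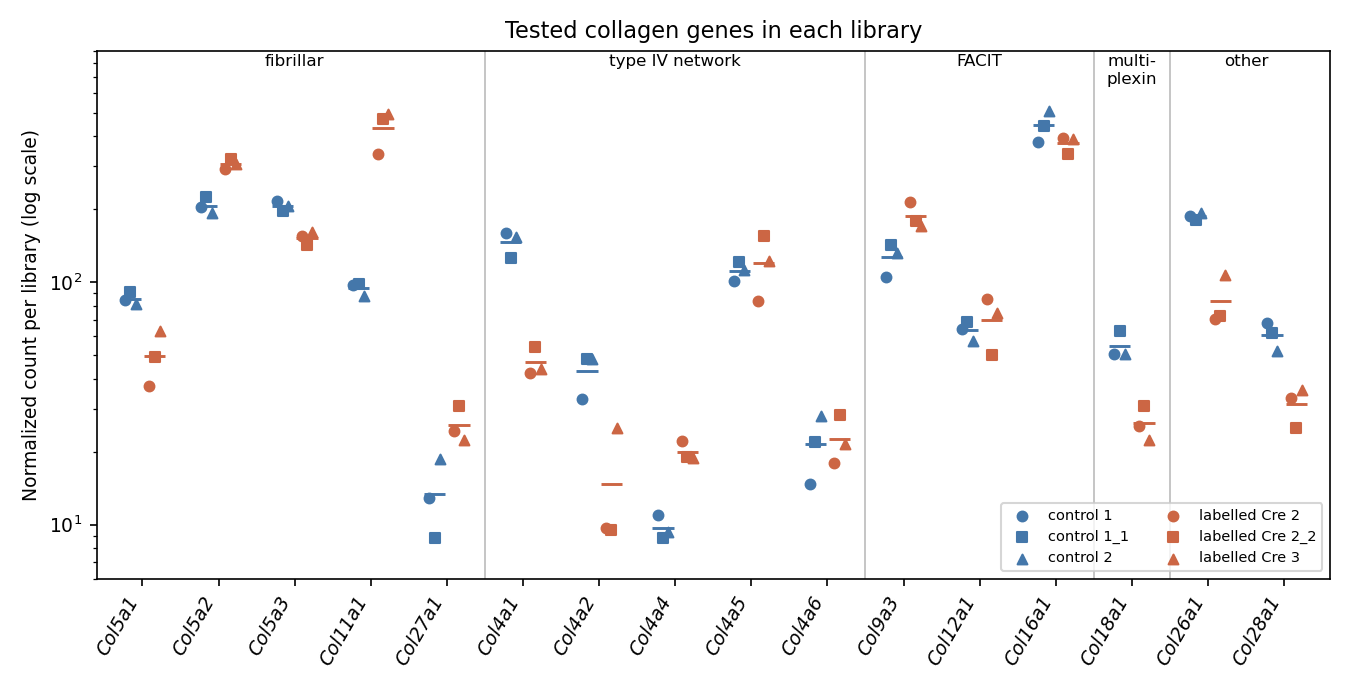
Normalized count (log axis) of the 16 tested collagen genes in each of the 6 libraries, ordered by family, with points for single libraries and lines for the group means. *Col11a1* moves from 88.02 to 98.0 in control up to 336.6 to 493.4, while *Col4a1* moves from 125.8 to 159.7 down to 42.2 to 54.2.

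**Figure D2:**
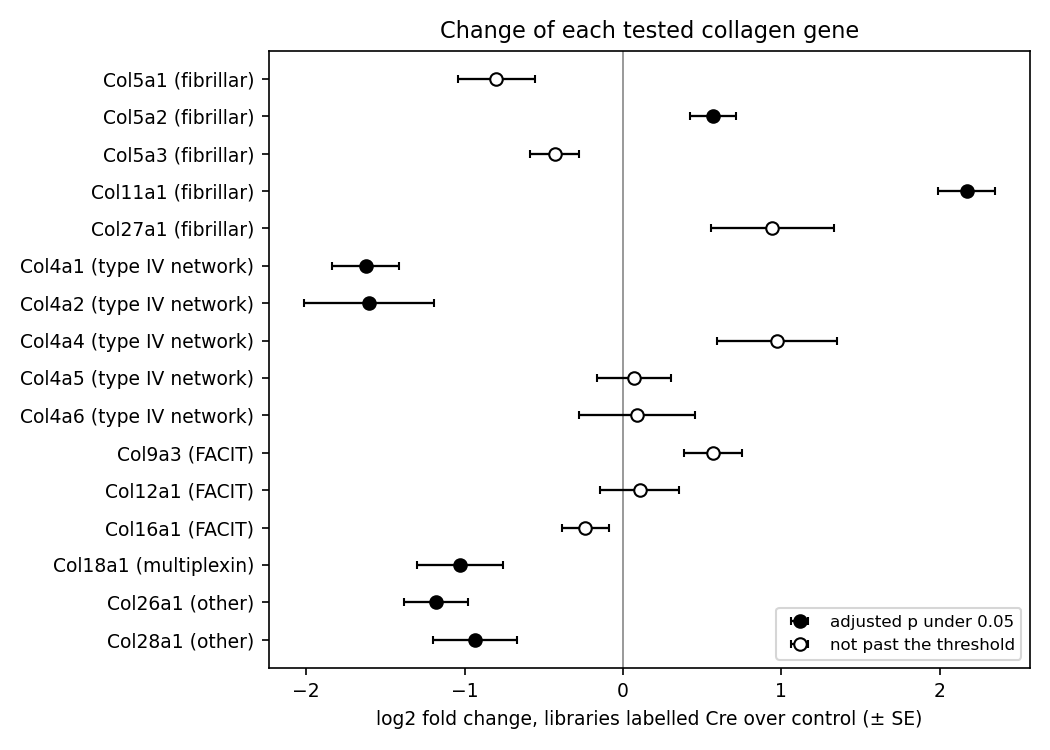
Log2 fold change of the libraries labelled Cre over control with its SE for the 16 tested collagen genes, with filled points for genes past the limma threshold. 2 fibrillar genes lie to the right among the filled points, and 5 genes of type IV, XVIII, XXVI and XXVIII lie to the left.

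Among the fibrillar collagens, 2 of the 5 tested genes rose in the libraries labelled Cre and the remaining 3 did not pass the test. *Col11a1* (ENSMUSG00000027966, chr3:114030479-114220756) encodes the chain of type XI collagen that sets the thin diameter of cartilage fibrils and also joins type V chains in other tissues. Its normalized count was 97.3, 98.0 and 88.02 in control and 336.6, 471.8 and 493.4 in the libraries labelled Cre. Every Cre library lay above 3 times the highest control value. The log2 fold change was 2.17 (SE 0.18, 4.50-fold, limma adjusted p = 5.08e-05), the strongest change of any tested collagen gene, and it passed under all 18 alternatives, with log2 fold changes from 2.07 to 2.34. The alternatives include this same fit at an adjusted p under 0.1, which no called gene can fail.

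*Col5a2* (ENSMUSG00000026042, chr1:45374331-45503282) encodes a chain of type V collagen, which starts and limits the growth of fibrils. It had 204.6, 223.8 and 192.0 normalized counts in control and 293.6, 321.1 and 306.2 in the libraries labelled Cre. The groups stood apart, with a log2 fold change of 0.57 (SE 0.14, limma adjusted p = 0.0299). The limma adjusted p rose to 0.123, 0.0631 and 0.118 without control replicates 1, 1_1 and 2, and to 0.109 without Cre replicate 2_2, with the direction kept each time.

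The other type V chains had lower values in the Cre arm without passing the test. *Col5a1*, whose chain makes up most of the common type V trimer, had 84.4, 90.7 and 81.4 normalized counts in control and 37.4, 49.1 and 62.7 in the libraries labelled Cre, all of them below control. Its log2 fold change of -0.80 (SE 0.24) did not pass, with a limma adjusted p of 0.0619, but did without Cre replicate 3 (-0.98, limma adjusted p = 0.0305). *Col5a3*, the chain of a rarer type V trimer, had 215.7, 196.0 and 206.7 in control against 155.1, 142.0 and 161.2, again without overlap (log2 fold change -0.43, SE 0.16, limma adjusted p = 0.106). *Col27a1*, a fibrillar collagen of developing cartilage, was low, at 8.8 to 18.7 in control and 22.4 to 31.0 in the libraries labelled Cre (log2 fold change 0.94, SE 0.39, limma adjusted p = 0.153).

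The make-up of the type V and XI group was read per exon length, as the normalized count per kilobase. *Col11a1* made up 13.2 to 13.9% of the summed level of the 4 chains in control and 37.6 to 44.8% in the libraries labelled Cre. *Col5a3* went from 39.5 to 43.9% to 19.1 to 24.6%, and *Col5a1* from 13.6 to 14.6% to 4.75 to 6.47%. The share of *Col5a2* overlapped between the groups, at 29.0 to 32.0% and 28.0 to 33.0%. Per length, *Col11a1* stood at 0.9501 to 1.01 times the level of *Col5a1* in control and at 6.92 to 8.45 times in the libraries labelled Cre. These shares are derived from the single genes above and were not tested separately.

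**Figure D3:**
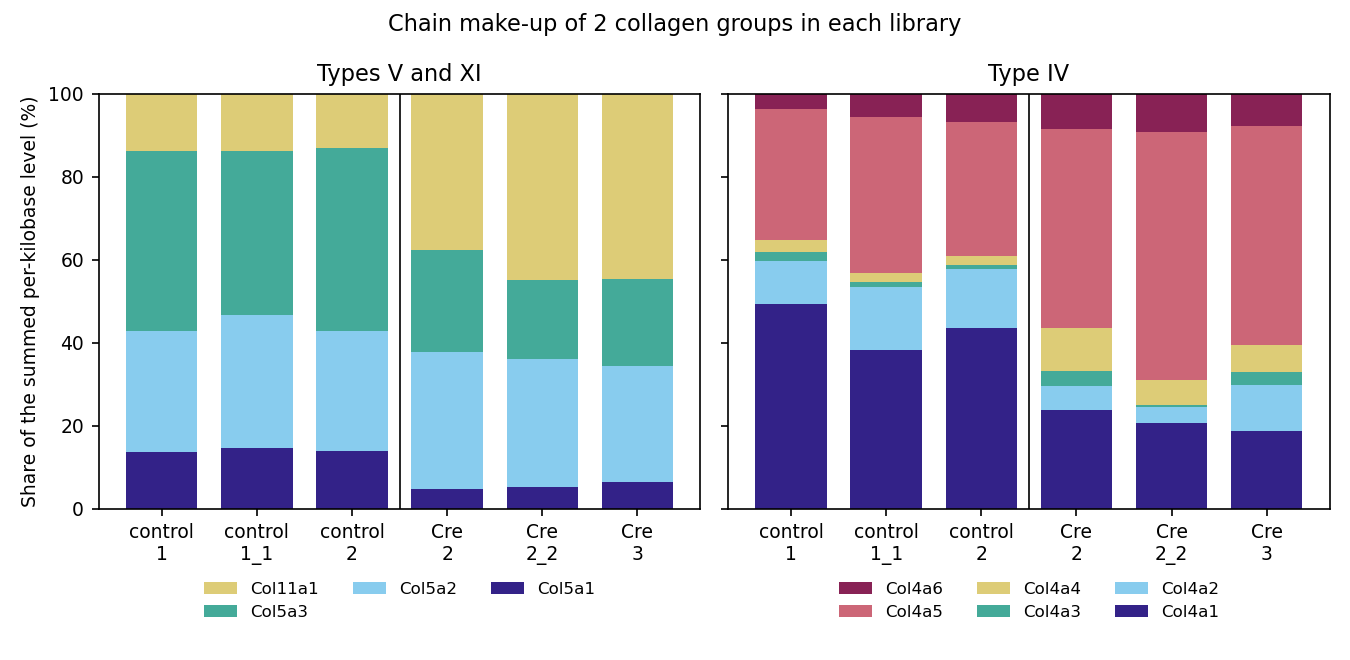
Share in percent of the summed normalized count per kilobase held by each chain, for types V and XI (4 chains, left) and type IV (6 chains, right), as 1 stacked bar per library. *Col11a1* takes 13.2 to 13.9% of the left bars in control and 37.6 to 44.8% in the libraries labelled Cre, and *Col4a1* drops from 38.3 to 49.2% to 18.7 to 23.8% of the right bars.

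The type IV genes lie in head-to-head pairs, *Col4a1* with *Col4a2*, *Col4a3* with *Col4a4*, and *Col4a5* with *Col4a6*. Of the 5 tested, the *Col4a1* and *Col4a2* pair fell and the other 3 did not pass the test. *Col4a1* (ENSMUSG00000031502, chr8:11198423-11312889) encodes the main chain of nearly all basement membranes. It had 159.7, 125.8 and 153.4 normalized counts in control and 42.2, 54.2 and 43.9 in the libraries labelled Cre. The highest Cre value was well below the lowest control value, and the log2 fold change was -1.63 (SE 0.21, 3.08-fold lower, limma adjusted p = 0.00104), past the threshold under all 18 alternatives.

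*Col4a2* (ENSMUSG00000031503, chr8:11312805-11449287) supplies the partner chain of the same trimer. It had 33.0, 48.3 and 48.0 normalized counts in control and 9.7, 9.5 and 25.1 in the libraries labelled Cre, without overlap but with Cre replicate 3 nearer to control. The log2 fold change was -1.61 (SE 0.41, limma adjusted p = 0.0323). The limma adjusted p was 0.0774, 0.121 and 0.132 without control replicates 1, 1_1 and 2, and 0.115 without Cre replicate 2_2. By their RefSeq bounds the 2 genes overlap by more than the 22 bases that were counted as shared exon. Those 22 bases are 0.323% of the exon length of *Col4a1* and 0.332% of that of *Col4a2*. The library kit does not mark strand, so reads in them could belong to either gene.

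Neither gene of the X chromosome pair passed the test. *Col4a5*, whose chain occurs in kidney and other specialised membranes, had 100.9, 121.4 and 112.0 normalized counts in control and 83.8, 155.0 and 121.8 in the libraries labelled Cre. The Cre values lay on both sides of control (log2 fold change 0.07, SE 0.23, limma adjusted p = 0.888), and the sign turned without control replicate 1 or without Cre replicate 2_2 (-0.14 for the latter). *Col4a6* ranged from 14.7 to 28.0 in control and from 18.0 to 28.4 in the libraries labelled Cre (0.09, SE 0.37, limma adjusted p = 0.909), and its sign turned in 4 alternatives. *Col4a4* was at 8.8 to 11.0 in control and 18.8 to 22.2 in the libraries labelled Cre, without overlap and without passing (0.97, SE 0.38, limma adjusted p = 0.135), and its partner *Col4a3* lay below the minimum, with 14 reads at most.

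Summed, the normalized counts of *Col4a1* and *Col4a2* were 174 to 201 in control and 51.9 to 68.9 in the libraries labelled Cre, while those of the other 4 type IV genes were 137 to 158 and 134 to 205. Per length, *Col4a1* was above *Col4a5* in every control library, at 1.02 to 1.56 times its level, and below it in every Cre library, at 0.345 to 0.497 times. *Col4a5* thus held 31.6 to 37.5% of the per-length type IV level in control and 47.9 to 59.9% in the libraries labelled Cre, although its own values overlapped. These sums, ratios and shares are derived from the single genes above and were not tested separately.

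Endothelial cells are a common source of type IV collagen, and their markers were read beside these genes. Of 10 endothelial markers, *Cdh5* and *Cldn5*, the defining junction proteins, had 0 reads in all 6 libraries, 4 markers in all never exceeded 3 reads, and 2 reached the tested level. These 2 were *Egfl7*, with 198.9 to 289.4 normalized counts in control and 74.0 to 195.2 in the libraries labelled Cre, and *Kdr*, with 16.004 to 33.95 and 6.9 to 10.3. Both were lower in every Cre library without passing limma's test (log2 fold changes -1.004 and -1.34, limma adjusted p = 0.0632 and 0.0677), though *Egfl7* passed with DESeq2 (adjusted p = 0.0282). *Kdr* reached the tested level only through control and so had to be lower. Of all tested genes, 15.5% were lower in the Cre arm without overlap. The summed level of the 10 markers was 248.7 to 321.4 in control and 93.8 to 211 in the libraries labelled Cre. The 2 tested mural cell markers of 9 listed, of which *Notch3* was highest, did not pass, with summed levels of 276 to 359 and 353 to 552. The part of either cell type in the type IV values was not tested, and in bulk libraries fewer cells of a type and less RNA per cell cannot be told apart.

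Outside type IV, 3 more collagen genes fell, all from types found at basement membranes or of less known function. *Col18a1* (ENSMUSG00000001435, chr10:77052178-77166530) encodes a basement membrane collagen that carries heparan sulfate chains and releases endostatin, an inhibitor of vessel growth. It had 50.5, 62.9 and 50.7 normalized counts in control and 25.6, 31.0 and 22.4 in the libraries labelled Cre. All Cre values lay below control (log2 fold change -1.03, SE 0.27, limma adjusted p = 0.0364). The limma adjusted p was 0.116, 0.139 and 0.105 without control replicates 1, 1_1 and 2, and 0.0566 and 0.0671 without Cre replicates 2_2 and 3. The annotation gives *Col18a1* a distal and a proximal start, and per-gene counts cannot separate the transcripts of the 2.

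*Col26a1* (ENSMUSG00000004415, chr5:136741759-136883376) encodes a short collagen with an EMI domain, first described in testis and ovary. It had 187.2, 179.9 and 193.4 normalized counts in control and 70.6, 72.3 and 107.4 in the libraries labelled Cre. The control values were close together and all above the Cre values, and the log2 fold change of -1.18 (SE 0.20, 2.27-fold lower, limma adjusted p = 0.00493) passed under all 18 alternatives. *Col28a1* (ENSMUSG00000068794, chr6:7997100-8193709) encodes a collagen with von Willebrand factor A domains, known from peripheral nerve. It had 67.9, 61.4 and 52.0 in control and 33.2, 25.0 and 35.8 in the libraries labelled Cre.

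The groups of *Col28a1* did not overlap, and its log2 fold change of -0.93 (SE 0.27) was just inside the threshold (limma adjusted p = 0.0489). The limma adjusted p moved to 0.202, 0.139 and 0.103 without control replicates 1, 1_1 and 2, to 0.142 without Cre replicate 2_2, and to 0.051 with TMM scaling. It passed in 7 of the 17 alternatives that tested it, the fewest among the 7 called genes. Those passes include the same fit at an adjusted p under 0.1, which a called gene cannot fail.

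None of the 3 tested FACIT genes passed limma's test, of which 1 had an unadjusted p under 0.05, and edgeR and DESeq2 called none either. Of all 14840 tested genes, 3778 had an unadjusted limma p under 0.05. *Col16a1*, a FACIT collagen of many tissues, had the highest mean count over the 6 libraries of all collagen genes, at 379.9, 440.3 and 508.1 in control and 394.1, 337.5 and 388.6 in the libraries labelled Cre. In 2 of the 3 libraries labelled Cre it lay below *Col11a1*. Its groups overlapped (log2 fold change -0.24, SE 0.15, limma adjusted p = 0.347). *Col9a3*, a chain of the type IX collagen that coats cartilage fibrils, had 105.5, 141.9 and 132.0 in control and 214.0, 178.2 and 171.0 in the libraries labelled Cre. These did not overlap, but the log2 fold change of 0.57 (SE 0.18) did not pass (limma adjusted p = 0.074). *Tcfl5* lies on the opposite strand and shares 234 bases of exon with *Col9a3*, 6.07% of its exon length, so a small part of its reads cannot be assigned. *Col12a1*, a FACIT collagen of tendon and other dense tissue, was at 57.3 to 68.8 in control and 49.9 to 85.2 in the libraries labelled Cre (0.11, SE 0.25, limma adjusted p = 0.835), and its sign turned without Cre replicate 2 (-0.05).

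Compared per exon length, *Col16a1* stood first in control at 65.6 ± 9.5 normalized counts per kilobase (SD, n = 3), above every other collagen gene in every control library. *Col9a3* (32.8 ± 4.88), *Col26a1* (32.0 ± 1.15) and *Col5a3* (30.3 ± 1.44) followed, and these neighbours overlapped. *Col5a2* and *Col4a1* came next at 21.6 ± 1.67 and 21.5 ± 2.64. *Col11a1* had rank 10 of 16, at 9.78 ± 0.58, next to *Col5a1* at 10.1 ± 0.56.

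In the libraries labelled Cre, the order at the top was *Col16a1* (55.3 ± 4.62), *Col9a3* (48.7 ± 5.98) and *Col11a1* (44.9 ± 8.80), whose values overlapped from neighbour to neighbour. *Col26a1* moved from rank 3 to rank 7 (14.3 ± 3.56), and *Col4a1* from rank 6 to rank 8 (6.86 ± 0.95). Exon lengths for this scale came from an older mouse annotation, and lengths of the transcripts in use may differ.

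**Figure D4:**
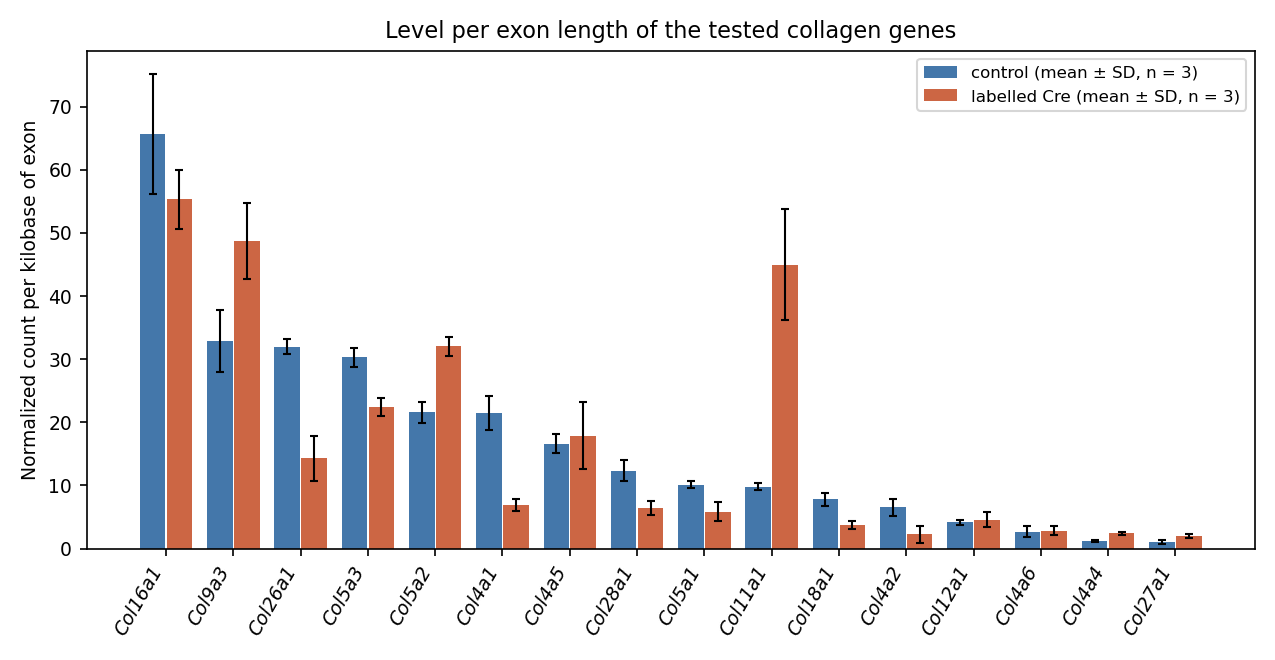
Normalized count per kilobase of exon of the 16 tested collagen genes in both groups, as the mean with SD of 3 libraries, ordered by the control level. *Col11a1* rises from 9.78 to 44.9 per kilobase, and *Col16a1* is highest in both groups.

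The 28 genes below the minimum include the collagens of connective tissue. Among them 6 had 0 reads in every library, 13 never exceeded 3 reads, and 15 did so in at least 1 library. None of the 6 beaded filament genes of type VI, the 4 transmembrane genes, the 3 short-chain network genes or the anchoring fibril gene *Col7a1* was tested. Just under the minimum were *Col7a1*, with a mean of 9.20 normalized counts, and *Col9a1*, with 8.75, while *Col4a4* (14.8) and *Col27a1* (19.7) lay just above it. *Col9a1*, another type IX chain, had 3.7, 4.4 and 4.0 normalized counts in control and 19.4, 11.2 and 9.8 in the libraries labelled Cre, and *Col7a1* had 8.3, 1.5 and 12.003 against 9.7, 9.5 and 14.3. In the fit without a filter neither passed (log2 fold changes 1.47 and 0.84, limma adjusted p = 0.19 and 0.597).

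Chosen after their values were seen, the main collagens of fibroblasts were near absent. *Col1a2* had 0 reads in every library, which allows up to 3 reads in each, and *Col3a1* had at most 1 read. *Col1a1* had 0 reads in control and in Cre replicate 2, and 9 and 7 reads in Cre replicates 2_2 and 3. Fibroblast and meningeal markers were read beside these genes. *Pdgfrb*, *Twist1*, *Foxd1*, *Aldh1a2* and *Dpt* had 0 reads throughout, and 8 of the 13 markers never exceeded 3 reads. Of the 3 that were tested, *Pdgfra* rose, a gene that also marks oligodendrocyte precursors, and *Prrx1* had the highest level, at 539.8 to 553.5 in control and 389.5 to 490.3. The summed level of the list overlapped between the groups, at 1012 to 1035 and 844 to 1117.

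Among the neural marker lists read beside the collagen genes, those of astrocytes and the oligodendrocyte lineage differed most often between the groups. Of all tested genes, 4.74% rose and 5.22% fell. Of 10 tested NSC markers, *Nes* and *Sox1* fell and none rose in limma's test, *Vim* was highest, and the list had summed levels of 39695 to 43581 in control and 39411 to 41460 in the libraries labelled Cre. Among 10 tested astrocyte markers, *S100b*, *Aqp4*, *Apoe*, *Slc1a2*, *Glul* and *Sox9*, the highest of them, rose and none was called lower. *Aldh1l1* moved the other way without overlap and without passing, from 14.7 to 19.0 down to 2.6 to 9.0 (log2 fold change -1.65, limma adjusted p = 0.065). It reached the tested level only through control and so had to be lower. *Cd44* also had a negative log2 fold change (-0.24), with overlapping groups. The summed level of the astrocyte list went from 9670 to 10864 to 17160 to 22786. Oligodendrocyte lineage markers gave 3 rises among 7 tested, *Olig2*, *Pdgfra* and *Cspg4*, with *Olig1* highest (12899 to 14824 against 17819 to 20124). Of 7 tested neuron markers *Elavl4* rose and *Gap43* fell, and *Map2* was highest. Microglia and choroid plexus markers each had 1 tested gene, *Csf1r* and *Otx2*, and neither passed. The part of these cell states in the collagen values was not tested.

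The genes that make, cut, bind or degrade collagen were read from 7 lists. Of 89 genes, 58 were tested, and 9 rose and 7 fell in limma's test, where 4.74% and 5.22% of all genes did. Of these, *Itga2* and *Mmp16* reached the tested level only through the Cre arm and *Pcolce* only through control, so these 3 had to differ and their calls are no support for their lists. Their median log2 fold change was 0.04. The 9 and 7 calls became 5 and 3 without control replicate 1 and 15 and 9 without Cre replicate 2.

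Enzymes that hydroxylate or glycosylate collagen gave no call among 11 tested by limma or edgeR and 1 by DESeq2, *Plod1* (log2 fold change 0.54, DESeq2 adjusted p = 0.0341). An unadjusted limma p under 0.05 was found for 2 of the 11, and for 3778 of all 14840 tested genes. *P4hb*, the disulfide isomerase that is also a subunit of the prolyl hydroxylase, was highest, at 2277 to 2330 in control and 2003 to 2544 in the libraries labelled Cre (log2 fold change -0.07, limma adjusted p = 0.774). Of 10 tested genes for folding and export, 2 rose and 1 fell in limma's test, with 3 calls by edgeR and 4 by DESeq2. *Creb3l1*, a membrane-bound transcription factor that switches on collagen genes in bone, had 68.8, 65.8 and 61.3 normalized counts in control and 31.2, 19.8 and 14.3 in the libraries labelled Cre. It fell by 1.61 on the log2 scale (SE 0.32, limma adjusted p = 0.00962), or 0.059 without control replicate 1.

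*Fkbp14*, a prolyl isomerase of the endoplasmic reticulum, rose from 56.0 to 89.9 in control to 128.8 to 166.5 (log2 fold change 0.98, limma adjusted p = 0.0202). *Sec23a*, part of the coat of export vesicles, rose from 496.1 to 603.8 to 705.1 to 846.1 (0.49, limma adjusted p = 0.0402). Both calls depended on single libraries. For *Fkbp14* the limma adjusted p was 0.0683, 0.0921 and 0.0579 without control replicates 1_1 and 2 and Cre replicate 2_2, and for *Sec23a* it lay between 0.0742 and 0.156 without any library but Cre replicate 2. *Serpinh1*, the collagen-specific chaperone HSP47 and the highest of the list, had 1404 to 2201 in control and 2288 to 4436 in the libraries labelled Cre without passing limma's or edgeR's test (0.69, limma adjusted p = 0.093, edgeR adjusted p = 0.0838), but passed with DESeq2 (adjusted p = 0.0202).

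All 3 calls among the 7 tested genes for procollagen cleavage and crosslinking were lower, but *Pcolce* was tested only through control and had to be lower. *Pcolce*, an enhancer of the proteinase that removes the C-terminal propeptide of fibrillar collagens, had 45.0, 51.2 and 52.0 normalized counts in control and 9.0, 3.4 and 7.2 in the libraries labelled Cre. It fell by 2.82 on the log2 scale (SE 0.40, limma adjusted p = 0.00175), with a Cre mean of 6.54 that lay below the minimum. Its relative *Pcolce2* had 69.7, 52.7 and 53.3 against 15.2, 27.5 and 22.4 (log2 fold change -1.42, SE 0.31, limma adjusted p = 0.0151). *Adamts14*, which cuts the N-terminal propeptide, had 126.6, 168.2 and 180.0 against 54.0, 86.1 and 93.1 (-1.04, SE 0.24, limma adjusted p = 0.0221).

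*Bmp1*, the C-terminal proteinase itself, was at 276.5 to 360.1 in control and 278 to 400 in the libraries labelled Cre (0.12, limma adjusted p = 0.723). Its groups overlapped. Without control replicates 1, 1_1 and 2 the limma adjusted p of *Pcolce2* was 0.0975, 0.0529 and 0.0586, and that of *Adamts14* was 0.0897, 0.111 and 0.0529 without control replicates 1_1 and 2 and Cre replicate 2_2.

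All 3 calls among the 7 tested collagen receptors were higher, but *Itga2* was tested only through the Cre arm and had to be higher. *Itga1*, a collagen-binding integrin subunit that prefers type IV, had 118.4, 150.7 and 153.4 normalized counts in control and 271.5, 257.4 and 329.5 in the libraries labelled Cre (log2 fold change 1.02, SE 0.17, limma adjusted p = 0.00462), and passed under all 18 alternatives. *Itga2*, the related subunit that prefers fibrillar collagen, had 9.2, 11.7 and 8.0 against 28.4, 59.4 and 30.4 (1.86, SE 0.40, limma adjusted p = 0.0136), with a control mean of 9.63 below the minimum. Its limma adjusted p was 0.0575, 0.0597 and 0.0718 without control replicates 1 and 2 and Cre replicate 2_2. *Ddr2*, a receptor tyrosine kinase for fibrillar collagen, had 322.1, 488.6 and 438.8 against 670.4, 731.8 and 890.0 (0.89, SE 0.17, limma adjusted p = 0.00936, and 0.0507 without control replicate 1). *Itgb1*, the common partner of both integrin subunits, was the highest of the list, with overlapping groups at 10987 to 12801 and 10949 to 12015.

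Among 8 tested genes of collagen breakdown and its inhibitors, 3 rose and 1 fell, and every call but that of *Mmp16* was an inhibitor. *Timp4*, an inhibitor of matrix metalloproteinases, had 1083.8, 1307.7 and 1281.6 normalized counts in control and 2831.8, 3566.7 and 3997.0 in the libraries labelled Cre (log2 fold change 1.49, SE 0.15, limma adjusted p = 0.000168). *Timp3*, the inhibitor that is bound to the matrix, rose from 367.1 to 490.8 to 786.0 to 1225.0 (1.12, SE 0.18, limma adjusted p = 0.00323). *Timp1* moved the other way, from 27.5 to 46.7 to 12.5 to 16.1 (-1.27, SE 0.35, limma adjusted p = 0.041), and without any library but Cre replicate 3 its limma adjusted p lay between 0.0508 and 0.178.

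*Mmp16*, a membrane-bound metalloproteinase, had 1 read in the 3 control libraries together and 125 reads in the 3 libraries labelled Cre. The ratio of the size-corrected counts was 84.7 (exact 95% interval 14.9 to 3373, counting error only), with Cre values of 31.3 to 34.6 normalized counts. Its limma adjusted p of 0.000831 belongs to a gene tested only because the Cre values were high. *Timp2* was the highest of the list, at 2095 to 2254 and 2137 to 3345 (0.39, limma adjusted p = 0.17).

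Of 11 tested basement membrane partners, 2 fell and none rose in limma's test, both laminin chains, while edgeR called 3 and DESeq2 4. *Lama4*, the laminin chain of vessel walls, had 462.5, 433.0 and 337.4 normalized counts in control and 184.2, 191.1 and 238.2 in the libraries labelled Cre (log2 fold change -0.99994, SE 0.17, limma adjusted p = 0.00456). *Lamb1*, a chain shared by most embryonic laminins, had 1974.0, 1764.1 and 1871.1 against 1353.2, 1159.6 and 1048.5 (-0.66, SE 0.13, limma adjusted p = 0.00813, and 0.0598 without control replicate 1). *Lamc1* and *Agrn* are named after their values were seen. *Lamc1*, the most common laminin gamma chain, had 1215.9, 1496.4 and 1138.9 against 889.2, 935.8 and 974.2, without overlap (-0.45, SE 0.13, limma adjusted p = 0.0513, edgeR 0.0474, DESeq2 0.0389). *Agrn*, a heparan sulfate proteoglycan, passed with DESeq2 alone (0.45, limma adjusted p = 0.0508, edgeR 0.0571, DESeq2 0.0331). *Sparc*, a collagen-binding glycoprotein and the highest of the list, overlapped between the groups at 6155 to 7586 and 6597 to 11793.

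Of the 4 tested collagen-binding matrix proteins, *Fn1*, the fibronectin gene, rose from 41.3 to 54.1 to 84.5 to 92.1 (0.86, SE 0.22, limma adjusted p = 0.031), and leaving out any library but Cre replicate 2 gave 0.0505 to 0.118. *Tnc*, the tenascin of neural stem cell niches, was highest, at 2072 to 2538 in control and 1738 to 1849 in the libraries labelled Cre, without overlap and without passing (-0.39, limma adjusted p = 0.0615).

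**Figure D5:**
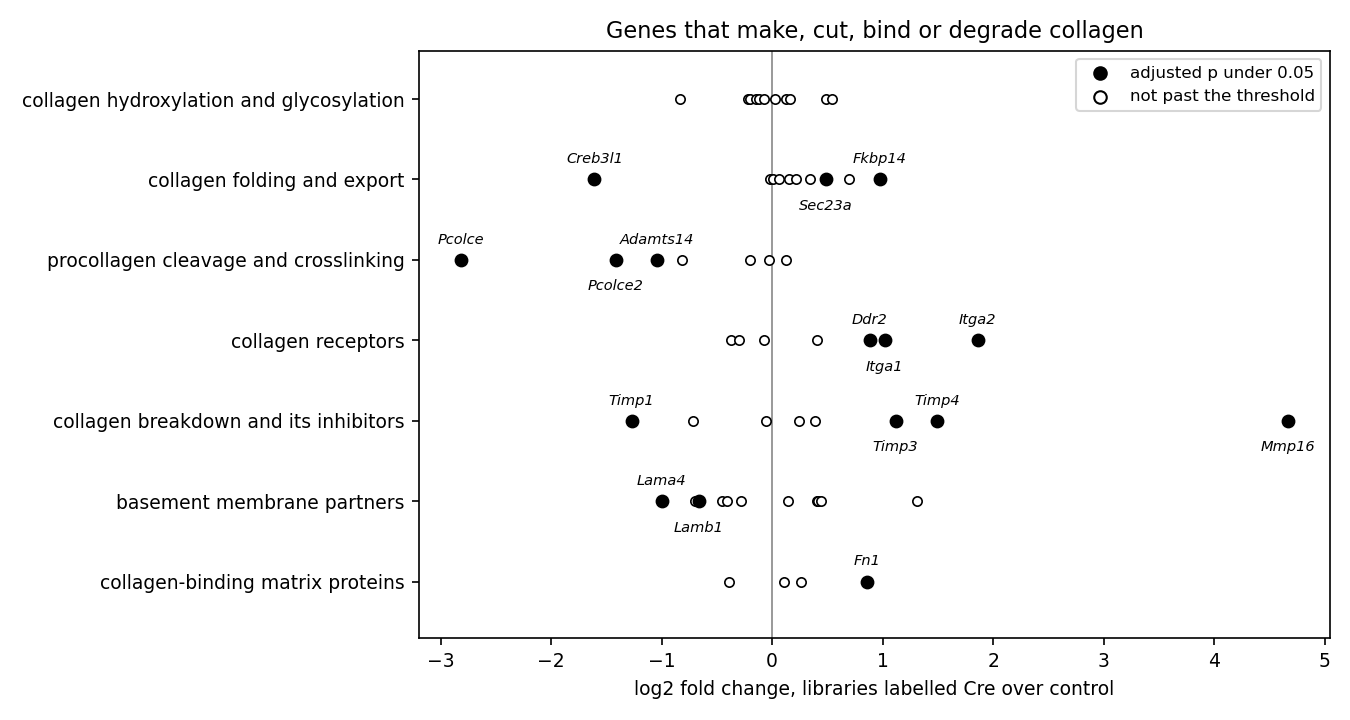
Log2 fold change on the log2(normalized count + 1) scale of the libraries labelled Cre over control for the 58 tested genes of 7 collagen-related lists, 1 point per gene, with filled and named points past the limma threshold. The called cleavage genes lie below 0 and the called receptors above 0. Among them *Pcolce* and *Itga2* reached the tested level through 1 group only and so had to differ. The position of *Mmp16* depends on the pseudocount because control held 1 read.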

How the data were processed

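The deposited table gave, per gene and library, a signal in normalized counts, made by the authors by dividing each read count by 1 DESeq2 size factor per library. Its mean, fold change, standard error, statistic, p-value and adjusted p-value columns, the authors' own comparison, were not used. Submitters' processing notes list STAR 2.7, DESeq2 and mm10, and the study's methods name TopHat with mm9 and mm10. The read counter, strand setting and annotation are not given in the sources used here. Libraries came from a TruSeq v2 kit that does not mark strand. A row with a blank value was left out, and 873 rows had no gene name.

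Dividing by the value of 1 read returned whole reads, within 0.01, for 100% of values. The main test was limma 3.58.1 (R 4.3.3, trended prior) on log2(normalized count + 1), fitted over 14840 genes that averaged at least 10, adjusted by Benjamini and Hochberg and called under 0.05. A fold change on this scale understates that of low genes. Alternatives were edgeR 4.0.16 quasi-likelihood and DESeq2 1.42.0 on the recovered reads, and other pseudocounts, filters, scalings, averaged replicates and left-out libraries. Another was the main fit itself at an adjusted p under 0.1, which a called gene cannot fail. The fits were tested on simulated data. Libraries were grouped by their labels.

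Every collagen gene at or above the minimum was named, with all libraries for those called and the 5 highest others. In other lists the called genes and the highest one were named. The members and lists were chosen with earlier results of these data known. Coordinates and sequences are from RefSeq (GRCm38.p6), and exon lengths from an mm9 annotation.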

Additional observations from a re-analysis of the deposited data

How the results depend on the processing

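Over 18 alternatives, 564 values of 32 named genes were compared with the reported ones. The direction and the side of the threshold were kept in 481, and the threshold was missed in 73 and newly passed in 3. *Col5a1* newly passed without Cre replicate 3. The other new passes, of *Col5a1* and *Col9a3*, came from judging the unchanged main fit at an adjusted p under 0.1. Values of that same fit for the other genes are among the 481. A further 7 values changed sign, none of which was called. These were *Col4a5* (-0.0011 without control replicate 1, -0.1364 without KO replicate 2_2, up to 0.3032 without KO replicate 2), *Col4a6* (-0.1499 and -0.08 without the same libraries, up to 0.2937 without control replicate 2, -0.0256 with control replicates 1 and 1_1 averaged, -0.0206 with both pairs averaged) and *Col12a1* (-0.0534 without KO replicate 2, up to 0.326 without KO replicate 2_2). KO is the group labelled Cre. *Col11a1*, *Col4a1* and *Col26a1* stayed past the threshold under all 18 alternatives, which include the looser threshold that a called gene cannot fail.

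Collagen genes called higher numbered 1 in place of 2 with control replicates 1 and 1_1 averaged and with both pairs averaged, and 1 to 2 without any single library. Those called lower numbered 3 in place of 5 without a filter, 2 at a minimum mean of 50, 2 with the control pair averaged, 3 with KO replicates 2 and 2_2 averaged, 2 with both pairs averaged, and 2 to 5 without any single library. A minimum of 50 also leaves fewer collagen genes tested, and averaging leaves fewer samples. Over all genes, 704 rose and 774 fell, against 351 and 309 with the control pair averaged, 451 and 434 with both pairs averaged, and 1132 and 1248 at an adjusted p under 0.1. Leaving out a library gave 308 to 1188 and 250 to 1208. For the collagen machinery, leaving out a library gave 5 to 15 higher and 3 to 9 lower, a minimum mean of 50 gave 4 lower, and averaging the control pair gave 4 lower. The cause of these shifts was not tested otherwise.

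No paired analysis was run, because the groups share only replicate number 2 in the labels and nothing says that this number marks a pair. With 7510615 reads in the shallowest library, 1 read is worth 1.46 normalized counts there, so genes near the minimum rest on few reads. Scaling moved the median log2 fold change of all genes by at most 0.01, and no collagen call changed direction with it. *Col28a1* did lose its call, at a limma adjusted p of 0.051 with TMM scaling and 0.0525 with scaling to the total count.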
